A study of Rattus norvegicus with 4 samples.

Results

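Lymphatic endothelial cells of the rat oesophagus were studied as 631 of 40724 kept cell barcodes in 4 single-cell RNA libraries. The barcodes were chosen by their own unique molecular identifier (UMI) counts. A barcode was kept with at least 500 UMIs and at most 20% mitochondrial UMIs, and it counted as lymphatic when Prox1, Mmrn1, Reln and Flt4 together had at least 2 UMIs over at least 2 of these genes. It also had to hold no UMI of the leukocyte gene Ptprc or the smooth muscle gene Myh11, at most 50 UMIs of the fibroblast genes Col3a1 and Dcn per 10000, and at most 5 of the basal keratin gene Krt5 per 10000. Levels of the 4 marker genes are therefore given as a description.

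The study irradiated the oesophageal region of male Sprague-Dawley rats, 6 weeks old, with X-rays. The 35Gy_7d group received 1 dose of 35 Gy and was killed on day 7. Both fractionated groups received 5 daily doses of 7 Gy, and 5x7Gy_7d was killed on day 7 and 5x7Gy_14d on day 14. The unirradiated group, 0Gy_7d, received 5 sham doses of 0 Gy and was killed on day 7. Oesophagi of 5 rats per group were pooled into 1 library, after cold storage and shipment that all 4 groups shared, and then dissociated with enzymes and passed through a dead-cell removal kit. With 1 pooled library per group no difference here has a replicate check, and no test was made. Intervals are exact 95% intervals that cover counting error only.

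Lymphatic endothelial cells line the vessels that drain fluid, antigen and leukocytes out of a tissue. Prox1 is the transcription factor that sets and keeps their identity, Flt4 (VEGFR3) is the receptor for the lymphatic growth factor VEGF-C, and Lyve1 and Ccl21 mark the thin-walled initial capillaries where fluid and dendritic cells enter. Collecting vessels downstream carry valves, built under the control of Foxc2, Gata2 and Nfatc1 with the gap junction proteins Gja4 and Gja1.

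The rule found 110 barcodes among 9744 in 35Gy_7d, 15 among 9082 in 5x7Gy_7d, 91 among 10080 in 5x7Gy_14d and 415 among 11818 in 0Gy_7d. Their UMIs summed to 509131, 35606, 716200 and 2112630 in the same order, with medians of 3562, 1617, 6646 and 3619 per barcode. Levels below are counts per 1000000 UMIs of these barcodes (CPM), summed within a library. In 5x7Gy_7d 1 UMI is worth about 28.1 CPM, so its 15 barcodes are described by levels alone. At the edge of the rule, exactly 2 marker UMIs were held by 2, 0, 15 and 22 of them. Just outside it, 81, 91, 295 and 411 barcodes held 1 marker UMI, and the exclusion genes removed 20, 5, 24 and 98 that had enough.

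Lymphatic genes that the rule did not use were checked against the label. Lyve1, a hyaluronan receptor of lymphatic capillaries, stood at 4912 CPM in 35Gy_7d, 2303 in 5x7Gy_7d, 2481 in 5x7Gy_14d and 3622 in 0Gy_7d, against 19.4, 3.53, 61.9 and 33.6 CPM in the other kept barcodes of the same libraries. Podoplanin (Pdpn), a membrane mucin of lymphatic endothelium, stood at 994 CPM in 35Gy_7d, 534 in 5x7Gy_7d, 278 in 5x7Gy_14d and 507 in 0Gy_7d, and Cdh5, the cadherin of all endothelium, at 293 CPM in 35Gy_7d, 309 in 5x7Gy_7d, 394 in 5x7Gy_14d and 235 in 0Gy_7d. In blood endothelial barcodes, defined below, Lyve1 stood at 25.4, 32.3, 47.1 and 16.6 CPM and Pdpn at 3.67, 0, 4.23 and 1.69 CPM in the same order. Cdh5, part of the rule for those barcodes, stood higher there, at 477, 825, 667 and 641 CPM. Sox18, another listed lymphatic marker, stood at 74.9, 296, 46.6 and 35.7 CPM there. In lymphatic barcodes without the blood vessel genes named below Sox18 stood at 46.4, 225, 24.2 and 40.9 CPM, so it did not set them apart. Lyve1 and Pdpn were thus far higher in the lymphatic barcodes of every library, with 1 reservation at day 14. Of the 91 barcodes of 5x7Gy_14d, 22 (24.2%) also held more than 5 UMIs per 10000 of the blood vessel genes Flt1, Plvap and Vwf, as did 6 of 110 in 35Gy_7d, 1 of 15 in 5x7Gy_7d and 17 of 415 (4.10%) in 0Gy_7d. These 22 had a median of 11280 UMIs and low lymphatic genes: Ccl21 stood at 446 CPM in them and at 15409 CPM in the other 69. The doublet caller Scrublet marked 1 of the 91. These 22 are called mixed barcodes below, and their origin was not tested. Day 14 lists and most of the genes named are therefore given for all 91 barcodes and also for the 69 without blood vessel genes, the restricted set, set against the 398 such barcodes of 0Gy_7d, a choice made after the data were seen.

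Lymphatic barcodes were scarcer in every irradiated library. They made up 1.13% of kept barcodes in 35Gy_7d (0.929 to 1.36%), 0.165% in 5x7Gy_7d (0.0925 to 0.272%), 0.903% in 5x7Gy_14d (0.727 to 1.11%) and 3.51% in 0Gy_7d (3.19 to 3.86%). Relative to 0Gy_7d the share was 3.11 times lower in 35Gy_7d (2.52 to 3.87), 21.3 times lower in 5x7Gy_7d (12.7 to 38.3) and 3.89 times lower in 5x7Gy_14d (3.09 to 4.94). Without the barcodes holding blood vessel genes the day 14 share was 4.92 times lower (3.80 to 6.45). Loss of the cells, poorer recovery from irradiated tissue and less marker RNA per cell cannot be told apart here.

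Blood endothelial barcodes did not follow the same order. They were found by a rule on Cdh5, Flt1 and Vwf with Prox1, Mmrn1 and Reln at 0, and numbered 544 in 35Gy_7d, 658 in 5x7Gy_7d, 1537 in 5x7Gy_14d and 807 in 0Gy_7d. Lymphatic barcodes were 16.8% of all endothelial barcodes in 35Gy_7d, 2.23% in 5x7Gy_7d, 5.59% in 5x7Gy_14d and 33.96% in 0Gy_7d, which is 2.02, 15.2 and 6.08 times lower than in 0Gy_7d for the irradiated libraries in that order. By this denominator the day 14 library stood further below 0Gy_7d than the single-dose library did, and it held the most blood endothelial barcodes. Barcodes that met the marker rule but exceeded the mitochondrial limit numbered 5, 1, 0 and 6 in 35Gy_7d, 5x7Gy_7d, 5x7Gy_14d and 0Gy_7d.

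**Figure D1:**
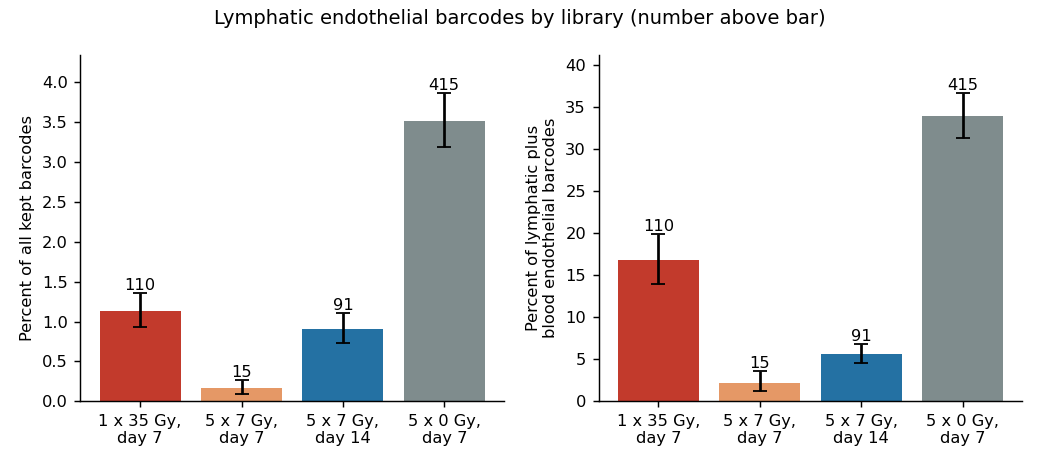
Lymphatic endothelial barcodes as a percentage of all kept barcodes (left) and of all endothelial barcodes (right) in the 4 libraries, with the number of barcodes above each bar and exact 95% intervals for counting error. All 3 irradiated libraries lie below 0Gy_7d on both axes, and 5x7Gy_7d, with 15 barcodes, is the lowest.

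The marker genes that chose the cells were present at different levels. Prox1 stood at 371 CPM in 35Gy_7d, 674 in 5x7Gy_7d, 397 in 5x7Gy_14d and 664 in 0Gy_7d. Mmrn1, an extracellular matrix protein of lymphatic and platelet granules, stood at 2974 CPM in 35Gy_7d, 4072 in 5x7Gy_7d, 1003 in 5x7Gy_14d and 2371 in 0Gy_7d. Reelin (Reln), a secreted glycoprotein, stood at 960.5 CPM in 35Gy_7d, 337 in 5x7Gy_7d, 188 in 5x7Gy_14d and 294 in 0Gy_7d, highest after the single dose, and Flt4 stood at 253 CPM in 35Gy_7d, 421 in 5x7Gy_7d, 155 in 5x7Gy_14d and 219 in 0Gy_7d. To set depths equal, each barcode was also thinned to 1000 UMIs, which left out 7, 4, 2 and 23 shallower ones. Reln then had a UMI in 65.05% of lymphatic barcodes of 35Gy_7d, 36.4% of 5x7Gy_7d, 14.6% of 5x7Gy_14d and 28.1% of 0Gy_7d, and before thinning in 88.2, 40, 54.9 and 65.5%. The rule asks for any 2 of the 4 genes, so a library can fill it with Reln where another fills it with Prox1.

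Identity genes outside the rule were present after the single dose, and the secreted products Ccl21, Sema3a and Cp stood higher there. Of 34 listed lymphatic identity genes, 29 reached the minimum of 30 UMIs over the libraries 35Gy_7d and 0Gy_7d, and 7 were at least 2-fold higher and 6 lower by that much in 35Gy_7d. Over all 6901 genes measured in this comparison 4.52% were at least 2-fold higher and 13.9% lower by that much. The median log2 ratio of the list was 0.17, beside -0.08 over all measured genes.

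Ccl21, the chemokine that draws CCR7-bearing dendritic cells and T cells into lymphatics, was the most abundant of them. It stood at 97745 CPM in 35Gy_7d, 28394 in 5x7Gy_7d, 9923 in 5x7Gy_14d and 33473 in 0Gy_7d, a log2 ratio over 0Gy_7d of 1.55 (1.53 to 1.56) in 35Gy_7d and -1.75 (-1.79 to -1.72) in 5x7Gy_14d. Per barcode the median was 1052 Ccl21 UMIs per 10000 in 35Gy_7d, 259.7 in 5x7Gy_7d, 15.7 in 5x7Gy_14d and 326 in 0Gy_7d. Barcodes with no Ccl21 UMI numbered 6 of 110 in 35Gy_7d, 1 of 15 in 5x7Gy_7d, 35 of 91 in 5x7Gy_14d and 24 of 415 in 0Gy_7d. Among the 69 day 14 barcodes without blood vessel genes the median was 46.4, 17 had no UMI, and the log2 ratio was -1.20 (-1.24 to -1.16), so the level was also lower without the mixed barcodes.

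Free Ccl21 RNA was low by comparison. In thinned Krt5-high epithelial barcodes, which should lack the gene, Ccl21 had a UMI in 1.99% of barcodes in 35Gy_7d, 0.125% in 5x7Gy_7d, 1.51% in 5x7Gy_14d and 5.34% in 0Gy_7d. The lymphatic barcodes had one in 93.2%, 90.9%, 57.3% and 89.3% in the same order, and before thinning in 94.5, 93.3, 61.5 and 94.2%. Before thinning, the Krt5-high barcodes had median depths of 17618, 5330.5, 14189 and 12966 UMIs, deeper than the lymphatic ones.

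Lyve1 and Pdpn differed less between the libraries than Ccl21 did. Lyve1 had a log2 ratio of 0.44 (0.37 to 0.51) in 35Gy_7d and -0.55 (-0.62 to -0.47) in 5x7Gy_14d, and of -0.002 (-0.08 to 0.07) at day 14 without the mixed barcodes. Pdpn had ratios of 0.97 (0.81 to 1.12) and -0.87 (-1.09 to -0.65), with -0.29 (-0.52 to -0.07) in the restricted set. Nr2f2 (COUP-TFII), the venous factor that cooperates with Prox1, stood at 271 CPM in 35Gy_7d, 172 in 5x7Gy_14d and 266 in 0Gy_7d, and Nrp2, the co-receptor for VEGF-C, at 269 CPM in 35Gy_7d, 264 in 5x7Gy_14d and 337 in 0Gy_7d. Their levels differed by less than 2-fold among these 3 libraries.

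The lymphatic atypical chemokine receptor Ackr3, which clears adrenomedullin and CXCL12, was likewise higher in 35Gy_7d and lower in 5x7Gy_14d. It stood at 615 CPM in 35Gy_7d, 365 in 5x7Gy_7d, 83.8 in 5x7Gy_14d and 232 in 0Gy_7d, with log2 ratios of 1.41 (1.20 to 1.61) in 35Gy_7d and -1.47 (-1.88 to -1.08) in 5x7Gy_14d, or -1.22 (-1.70 to -0.77) in the restricted set. Fgl2, a fibrinogen-like protein, stood at 1601 CPM in 35Gy_7d, 522 in 5x7Gy_14d and 659 in 0Gy_7d, a ratio of 1.28 (1.15 to 1.41) after the single dose. On the lower side in 35Gy_7d were Klhl4, a kelch protein with lymphatic expression, at 171 CPM in 35Gy_7d against 485 in 0Gy_7d and -1.51 (-1.84 to -1.19) on the log2 scale, and Fxyd6, a sodium pump regulator, at 98.2 CPM in 35Gy_7d against 199 in 0Gy_7d and -1.02 (-1.47 to -0.59). Ceruloplasmin (Cp), a copper-carrying ferroxidase, was higher there at 118 CPM in 35Gy_7d against 21.8 in 0Gy_7d, a ratio of 2.44 (1.86 to 3.02).

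**Figure D2:**
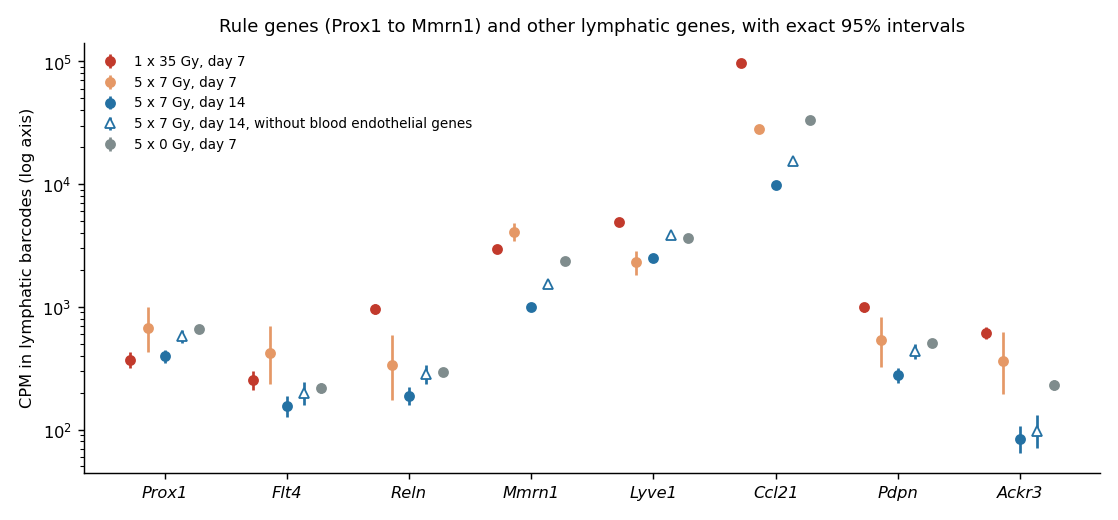
Levels of lymphatic marker and identity genes (CPM, log axis) in the lymphatic barcodes of each library; triangles give 5x7Gy_14d without the 22 barcodes that hold blood vessel genes. Ccl21 lies near 97745 CPM in 35Gy_7d and near 9923 CPM in 5x7Gy_14d, on either side of 33473 CPM in 0Gy_7d, while Lyve1 lies between 2303 CPM in 5x7Gy_7d and 4912 CPM in 35Gy_7d.

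At day 14 the median of the identity list lay below that of all measured genes, by less without the mixed barcodes. Of 27 measured genes, 1 was at least 2-fold higher and 2 lower by that much, with a median log2 ratio of -0.35. Over all 7295 measured genes 6.79% were at least 2-fold higher and 5.46% lower, with a median of 0.08. In the restricted set 2 were at least 2-fold higher and 2 lower by that much of 27, with a median of -0.002, where 5.59% of 6729 genes were at least 2-fold higher and 6.84% lower, with a median of 0.09. The genes at least 2-fold lower in both sets were Ccl21 and Ackr3.

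Valve and collecting vessel genes differed between the single-dose and day 14 libraries. After the single dose, of 24 measured genes of this list 4 were at least 2-fold higher and 10 lower by that much, with a median log2 ratio of -0.54. In 5x7Gy_14d 5 were at least 2-fold higher and 0 lower by that much of 24, with a median of 0.44, and in the restricted set 7 were at least 2-fold higher and 0 lower by that much of 23, with a median of 0.57. In blood endothelial barcodes of the same libraries the list had medians of 0.24 in 35Gy_7d and 0.23 in 5x7Gy_14d. Shares over all measured genes were 4.52% higher and 13.9% lower in 35Gy_7d and 6.79% higher and 5.46% lower in 5x7Gy_14d. In the restricted set they were 5.59% and 6.84%. Both comparisons share the 0Gy_7d library.

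Among structural genes, claudin 11 (Cldn11), a tight junction protein enriched on lymphatic valves, stood at 13.7 CPM in 35Gy_7d, 112 in 5x7Gy_7d, 142 in 5x7Gy_14d and 76.7 in 0Gy_7d. That is a log2 ratio of -2.48 (-3.82 to -1.40) in 35Gy_7d and 0.89 (0.52 to 1.26) in 5x7Gy_14d, or 1.43 (1.05 to 1.80) without the mixed barcodes. It had a UMI in 6 of 110 barcodes in 35Gy_7d, 31 of 91 in 5x7Gy_14d and 52 of 415 in 0Gy_7d, and in the restricted set 216 CPM stood against 80.3 CPM. Gja4 (connexin 37) stood at 49.1 CPM in 35Gy_7d, 94.9 in 5x7Gy_14d and 57.3 in 0Gy_7d, higher at day 14 with 0.73 (0.28 to 1.17) and 1.12 (0.59 to 1.65) in the restricted set, and Gja1 (connexin 43) stood at 385 CPM in 35Gy_7d, 228 in 5x7Gy_14d and 414 in 0Gy_7d.

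The valve transcription factors were low in every library. Foxc2, which is required to form valves, stood at 21.6 CPM in 35Gy_7d, 37.7 in 5x7Gy_14d and 28.9 in 0Gy_7d, and its intervals spanned a ratio of 1 in 35Gy_7d, at -0.42 (-1.49 to 0.52), and for all 91 day 14 barcodes, at 0.38 (-0.33 to 1.06). In the restricted set its ratio was 0.92 (0.18 to 1.62). Its relative Foxc1 had 3 UMIs in 35Gy_7d, at 5.89 CPM in 35Gy_7d against 48.8 in 0Gy_7d, a ratio of -3.05 (-5.35 to -1.46). Nfatc1, the calcineurin-dependent factor, stood at 23.6 CPM in 35Gy_7d, 55.9 in 5x7Gy_14d and 71.9 in 0Gy_7d, with -1.61 (-2.59 to -0.76) after the single dose, and Gata2 at 41.2 CPM in 35Gy_7d, 67.02 in 5x7Gy_14d and 65.3 in 0Gy_7d. With every barcode thinned to 1000 UMIs, Cldn11 and Nfatc1 lay nearer to 0Gy_7d in 35Gy_7d, with log2 ratios of -0.93 and -0.60. Their lower level there is thus not firm. Thinned Foxc1 was at or near the floor of 3 counts that stands for a library without UMIs. Its value of 0.19 is therefore not a measured ratio, and its lower level rests on the few UMIs before thinning. Klf4, a shear-responsive factor that is also an early response gene, stood at 114 CPM in 35Gy_7d, 140.4 in 5x7Gy_7d, 1141 in 5x7Gy_14d and 1209.9 in 0Gy_7d, a ratio of -3.41 (-3.81 to -3.03) in 35Gy_7d and -0.08 (-0.20 to 0.03) in 5x7Gy_14d.

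The 4 list members at least 2-fold higher after the single dose were Sema3a, Angpt2, Adgrg3 and Esam. Semaphorin 3A (Sema3a), a repulsive guidance cue that valve endothelium secretes, stood at 428 CPM in 35Gy_7d, 28.1 in 5x7Gy_7d, 93.5 in 5x7Gy_14d and 49.7 in 0Gy_7d, ratios of 3.11 (2.76 to 3.46) in 35Gy_7d, 0.91 (0.45 to 1.37) in 5x7Gy_14d and 1.52 (1.05 to 1.98) in the restricted set. It had a UMI in 73 of 110, 1 of 15, 33 of 91 and 76 of 415 barcodes in the order of those libraries. Angiopoietin 2 (Angpt2), a Tie2 ligand needed for valve and capillary maturation, stood at 432 CPM in 35Gy_7d, 0 in 5x7Gy_7d, 117 in 5x7Gy_14d and 82.4 in 0Gy_7d, a ratio of 2.39 (2.10 to 2.69) in 35Gy_7d and 0.51 (0.12 to 0.89) in 5x7Gy_14d. The adhesion receptor Adgrg3 stood at 324 CPM in 35Gy_7d, 93.5 in 5x7Gy_14d and 151 in 0Gy_7d, with 1.10 (0.82 to 1.37) in 35Gy_7d.

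The 5 members at least 2-fold higher over all 91 day 14 barcodes were Esam, Bmp4, Lama5, Nos3 and Pgm5. Esam, an endothelial adhesion molecule, stood at 199.7 CPM in 5x7Gy_14d against 27.5 in 0Gy_7d, with log2 ratios of 2.86 (2.41 to 3.33) and 1.90 (0.93 to 2.85) without the mixed barcodes. Lama5, the laminin alpha chain found in mature vessel and valve basement membrane, stood at 61.4 CPM in 5x7Gy_14d against 13.7 in 0Gy_7d, ratios of 2.16 (1.45 to 2.89) and 1.87 (0.85 to 2.88). Pgm5 (aciculin), a cytoskeletal adaptor, stood at 43.3 CPM in 5x7Gy_14d against 19.9 in 0Gy_7d, ratios of 1.12 (0.40 to 1.83) and 1.44 (0.60 to 2.25). Nos3, the endothelial nitric oxide synthase, stood at 50.3 CPM in 5x7Gy_14d against 18.5 in 0Gy_7d, ratios of 1.45 (0.75 to 2.14) and 1.22 (0.13 to 2.26). Bmp4, a ligand of the BMP pathway, at 2.18 (1.59 to 2.78), had too few UMIs in the restricted set to be measured.

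**Figure D3:**
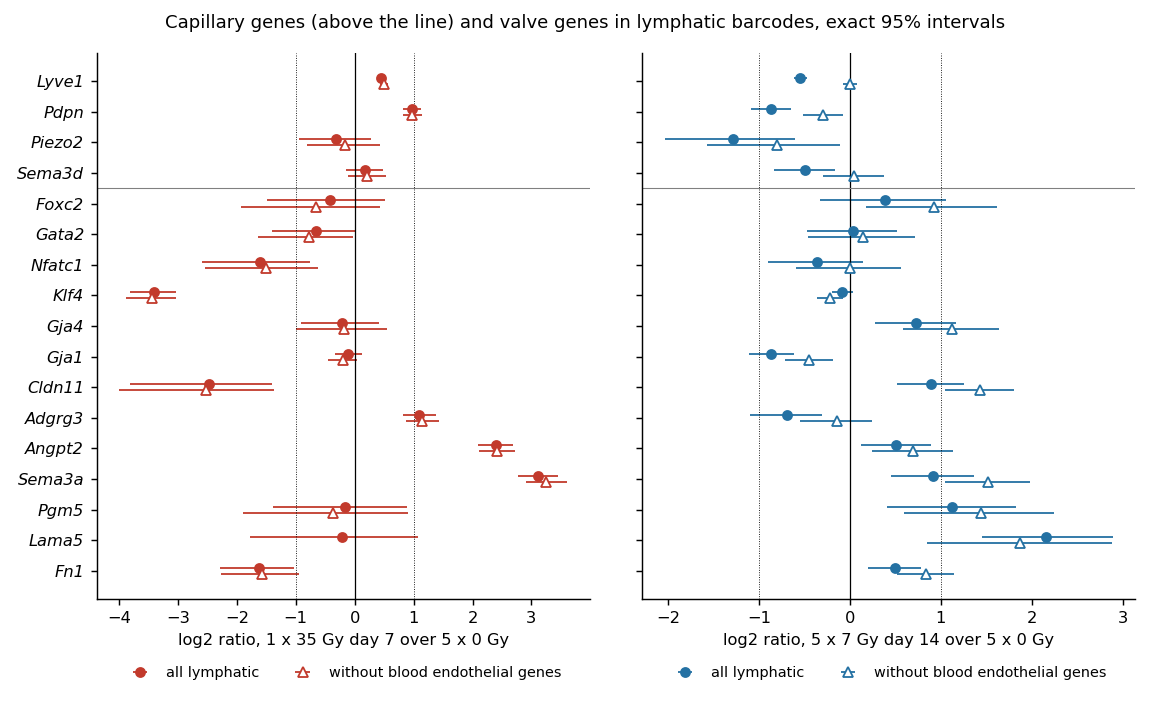
Log2 ratio over 0Gy_7d of capillary genes and of collecting vessel and valve genes in lymphatic barcodes of 35Gy_7d (left) and 5x7Gy_14d (right), with triangles for the barcodes without blood vessel genes, exact 95% intervals for counting error and dotted lines at 2-fold. Cldn11 lies at -2.48 in 35Gy_7d and 0.89 in 5x7Gy_14d, and Sema3a lies at 3.11 in 35Gy_7d.

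Genes of the initial capillaries, a list that shares members with the identity list, gave no common direction. In 35Gy_7d 2 were at least 2-fold higher and 2 lower by that much of 10, with a median log2 ratio of -0.01. In 5x7Gy_14d 1 was at least 2-fold higher and 2 lower by that much of 10, with a median of -0.52 that was -0.004 in the restricted set. All measured genes gave 4.52% higher and 13.9% lower in 35Gy_7d, and 6.79% and 5.46% in 5x7Gy_14d. Piezo2, a mechanically gated channel, stood at 54.996 CPM in 35Gy_7d, 27.9 in 5x7Gy_14d and 68.2 in 0Gy_7d, with -1.29 (-2.04 to -0.61) at day 14 and -0.80 (-1.58 to -0.11) in the restricted set. Fabp4, a fatty acid carrier abundant in capillary blood endothelium, stood at 1769 CPM in 5x7Gy_14d against 293 in 0Gy_7d, a ratio of 2.60 (2.46 to 2.74) that was 0.45 (0.02 to 0.86) once the mixed barcodes were left out.

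The list of lymphatic growth signalling holds ligands, receptors and regulators. Of 26 measured genes 4 were at least 2-fold higher and 2 lower by that much in 35Gy_7d, with a median of 0.03. That is 15.4% higher and 7.69% lower, beside 4.52% and 13.9% of all measured genes. In 5x7Gy_14d 7 were at least 2-fold higher and 1 lower by that much of 28 (25% higher, beside 6.79% of all genes), with a median of 0.26. In the restricted set 4 were at least 2-fold higher and 1 lower by that much of 27 (14.8% higher, beside 5.59%), with a median of 0.12. Among the receptors Kdr (VEGFR2) stood at 393 CPM in 35Gy_7d, 256 in 5x7Gy_14d and 309 in 0Gy_7d, Tie1 at 183 CPM in 35Gy_7d, 204 in 5x7Gy_14d and 189 in 0Gy_7d and the adrenomedullin receptor gene Calcrl at 289 CPM in 35Gy_7d, 145 in 5x7Gy_14d and 234 in 0Gy_7d.

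One co-receptor of that system stood apart after the single dose. Ramp3, which tunes the adrenomedullin receptor, stood at 234 CPM in 35Gy_7d, 140.4 in 5x7Gy_7d, 37.7 in 5x7Gy_14d and 35.03 in 0Gy_7d, a log2 ratio of 2.74 (2.31 to 3.18) in 35Gy_7d and 0.11 (-0.59 to 0.76) in 5x7Gy_14d. The related co-receptor gene Ramp2 was abundant throughout at 2308 CPM in 35Gy_7d, 2106 in 5x7Gy_7d, 1544 in 5x7Gy_14d and 1736 in 0Gy_7d. The ratio of Ramp3 in blood endothelial barcodes was also high, at 5.94 in 35Gy_7d and 3.22 in 5x7Gy_14d. Ligands were sparse in the lymphatic barcodes. Vegfd had 0, 0, 0 and 2 UMIs and Vegfc 7, 2, 20 and 13 UMIs over the libraries 35Gy_7d, 5x7Gy_7d, 5x7Gy_14d and 0Gy_7d.

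At day 14 the higher ligands and regulators included Hgf and Ptpn14. Hgf, a growth factor for lymphatic and blood endothelium, stood at 40.5 CPM in 5x7Gy_14d against 9.47 in 0Gy_7d, with ratios of 2.10 (1.23 to 2.996) and 2.87 (1.81 to 3.98) in the restricted set. Ptpn14, a phosphatase that restrains VEGFR3 signalling, stood at 33.5 CPM in 5x7Gy_14d against 9.94 in 0Gy_7d, ratios of 1.75 (0.85 to 2.67) and 2.11 (1.16 to 3.05). The semaphorin co-receptor Nrp1 had a ratio of 1.78 (1.35 to 2.22) over all 91 barcodes but -0.21 (-1.96 to 1.20) in the restricted set, so its height came with the blood vessel genes.

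Guidance cues other than Sema3a followed no single direction after the single dose. Of 15 measured guidance genes 3 were at least 2-fold higher and 2 lower by that much, the higher ones being Sema3a, Sema3f and the marker Reln. All measured genes gave 4.52% higher and 13.9% lower in 35Gy_7d. Sema3f, which signals through Nrp2, stood at 200.3 CPM in 35Gy_7d, 112 in 5x7Gy_7d, 34.9 in 5x7Gy_14d and 42.6 in 0Gy_7d, a ratio of 2.23 (1.81 to 2.66) in 35Gy_7d. Netrin 1 (Ntn1) stood at 9.82 CPM in 35Gy_7d, 76.8 in 5x7Gy_14d and 57.3 in 0Gy_7d, a ratio of -2.54 (-4.19 to -1.28) in 35Gy_7d and 0.42 (-0.06 to 0.89) in 5x7Gy_14d, while Sema3d, another lymphatic semaphorin, stood at 212 CPM in 35Gy_7d, 134 in 5x7Gy_14d and 189 in 0Gy_7d. The plexin receptor gene Plxnd1 stood at 13.7 CPM in 35Gy_7d, 94.9 in 5x7Gy_14d and 33.6 in 0Gy_7d, with 1.50 (0.997 to 1.999) at day 14 and 0.57 (-0.24 to 1.33) in the restricted set, and 0.23 after thinning.

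Apart from lists of other cell types, the lowest median of any list in lymphatic barcodes of 35Gy_7d was that of immediate-early genes, transcription factors and feedback regulators that cells switch on within minutes of stress or enzymatic dissociation. Of 37 measured genes 0 were at least 2-fold higher and 30 lower by that much in 35Gy_7d, with a median log2 ratio of -2.65. Shares over all measured genes were 4.52% higher and 13.9% lower. Fos stood at 66.8 CPM in 35Gy_7d, 0 in 5x7Gy_7d, 6004 in 5x7Gy_14d and 7602 in 0Gy_7d, a ratio of -6.83 (-7.36 to -6.35) in 35Gy_7d and -0.34 (-0.39 to -0.29) in 5x7Gy_14d. Atf3 stood at 23.6 CPM in 35Gy_7d, 0 in 5x7Gy_7d, 3482 in 5x7Gy_14d and 4599.9 in 0Gy_7d, with -7.61 (-8.56 to -6.80) in 35Gy_7d, and Egr1 at 25.5 CPM in 35Gy_7d, 28.1 in 5x7Gy_7d, 1296 in 5x7Gy_14d and 2063 in 0Gy_7d, with -6.34 (-7.25 to -5.56). Both day 7 irradiated libraries were thus low and 5x7Gy_14d and 0Gy_7d were high.

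The same genes were low in other cells of the day 7 irradiated libraries. In all other kept barcodes Fos stood at 351, 7.89, 10158 and 7746 CPM in the same order of libraries. The list's median ratio in blood endothelial barcodes of 35Gy_7d was -2.33. In thinned Krt5-high barcodes Fos had a UMI in 19.4%, 0.498%, 92.5% and 92.3% of barcodes, beside 5.83%, 0%, 80.9% and 91.8% of lymphatic barcodes, which before thinning were 16.4, 0, 97.8 and 97.6%. With 1 pooled library a group, radiation and the handling of a library cannot be told apart.

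The regulators Dusp1, Ier2 and Ppp1r15a are shown with their promoters because each carries the full palindromic cAMP response element, TGACGTCA, in the 300 bases around its start. Dusp1, a phosphatase that switches off MAP kinases, stood at 78.6 CPM in 35Gy_7d, 169 in 5x7Gy_7d, 1033 in 5x7Gy_14d and 2163 in 0Gy_7d, ratios of -4.78 (-5.27 to -4.34) in 35Gy_7d and -1.07 (-1.18 to -0.95) in 5x7Gy_14d. Ier2, a nuclear early response protein, stood at 183 CPM in 35Gy_7d, 169 in 5x7Gy_7d, 741 in 5x7Gy_14d and 1268 in 0Gy_7d, with -2.79 (-3.11 to -2.50) in 35Gy_7d. Ppp1r15a (GADD34), which reverses the translation block of the stress response, stood at 128 CPM in 35Gy_7d, 28.1 in 5x7Gy_7d, 628 in 5x7Gy_14d and 1066 in 0Gy_7d, with -3.06 (-3.44 to -2.71). Sequences are from RefSeq, assembly GRCr8, which is not the build of the counts, from 250 bases before to 50 after the gene's start and 5′ to 3′ along the gene: chr10:17184603-17184902 on the + strand for Dusp1, chr1:105139547-105139846 on the - strand for Ppp1r15a and chr19:40399123-40399422 on the + strand for Ier2. Capitals mark the element, which reads the same on both strands.
Dusp1: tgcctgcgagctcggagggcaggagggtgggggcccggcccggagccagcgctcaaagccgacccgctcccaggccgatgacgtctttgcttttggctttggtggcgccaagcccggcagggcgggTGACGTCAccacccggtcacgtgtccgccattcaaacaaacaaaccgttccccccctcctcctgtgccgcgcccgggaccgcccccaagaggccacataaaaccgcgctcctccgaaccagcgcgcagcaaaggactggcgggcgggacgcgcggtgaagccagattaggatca
Ppp1r15a: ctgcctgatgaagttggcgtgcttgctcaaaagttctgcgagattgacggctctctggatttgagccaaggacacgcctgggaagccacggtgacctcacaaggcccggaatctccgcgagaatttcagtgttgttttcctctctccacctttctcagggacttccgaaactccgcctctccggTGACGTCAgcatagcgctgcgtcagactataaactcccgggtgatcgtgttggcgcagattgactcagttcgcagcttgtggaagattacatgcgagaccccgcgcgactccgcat
Ier2: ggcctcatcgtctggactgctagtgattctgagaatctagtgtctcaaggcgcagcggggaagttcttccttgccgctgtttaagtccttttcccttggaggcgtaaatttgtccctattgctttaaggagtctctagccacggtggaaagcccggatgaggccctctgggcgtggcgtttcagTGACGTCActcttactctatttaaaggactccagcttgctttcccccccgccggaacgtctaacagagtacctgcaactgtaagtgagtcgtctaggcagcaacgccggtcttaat
The element occurs in 612 of 33469 rat promoters of the same length (1.83%), and in 5 of the 32 immediate-early genes with an entry (15.6%), the others being Jund and Maff. A match is a description of these letters only.

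Heat shock genes were mostly lower in 35Gy_7d and gave no common direction at day 14. Of 20 measured genes 0 were at least 2-fold higher and 12 lower by that much in 35Gy_7d, with a median of -1.59, beside -1.03 in blood endothelial barcodes. Shares over all measured genes were 4.52% higher and 13.9% lower there. In 5x7Gy_14d 0 were at least 2-fold higher and 2 lower by that much of 20, with a median of 0.01 that was -0.22 in the restricted set. All measured genes gave 6.79% higher and 5.46% lower at day 14. Hspb1, a small chaperone that stabilises actin, stood at 524 CPM in 35Gy_7d, 534 in 5x7Gy_7d, 2723 in 5x7Gy_14d and 5150.4 in 0Gy_7d, with ratios of -3.30 (-3.48 to -3.12) in 35Gy_7d and -0.92 (-0.99 to -0.85) in 5x7Gy_14d. Dnajb1, an HSP70 co-chaperone, stood at 21.6 CPM in 35Gy_7d, 84.3 in 5x7Gy_7d, 302 in 5x7Gy_14d and 512 in 0Gy_7d, with -4.57 (-5.57 to -3.72) in 35Gy_7d. Hspa1b stood at 86.4 CPM in 35Gy_7d, 0 in 5x7Gy_7d, 3524 in 5x7Gy_14d and 4563 in 0Gy_7d, but it shares reads with a near-identical copy, so its own level is uncertain.

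Inflammatory mediators gave no common direction after the single dose. Of 20 measured genes of this list 4 were at least 2-fold higher and 8 lower by that much in 35Gy_7d, with a median of -0.01. That is 20% higher and 40% lower, beside 4.52% and 13.9% of all measured genes. Some single genes of immune signalling were low there. Irf1, an interferon response factor, stood at 15.7 CPM in 35Gy_7d, 56.2 in 5x7Gy_7d, 441 in 5x7Gy_14d and 441 in 0Gy_7d, a ratio of -4.81 (-6.03 to -3.83) in 35Gy_7d. Icam1, the adhesion molecule that leukocytes use on lymphatic and blood endothelium, stood at 80.5 CPM in 35Gy_7d, 28.1 in 5x7Gy_7d, 384 in 5x7Gy_14d and 387 in 0Gy_7d, with -2.27 (-2.76 to -1.81). The inhibitor Nfkbia stood at 405 CPM in 35Gy_7d, 281 in 5x7Gy_7d, 1562 in 5x7Gy_14d and 2359 in 0Gy_7d, with -2.54 (-2.75 to -2.34), and the neutrophil chemokine gene Cxcl1 at 691 CPM in 35Gy_7d, 0 in 5x7Gy_7d, 1981 in 5x7Gy_14d and 3135 in 0Gy_7d, with -2.18 (-2.34 to -2.03). Cxcl10 had no UMI in 35Gy_7d, at least 8.997-fold lower than 53.01 CPM in 0Gy_7d with the floor of 3 counts, where 45.5% of its UMIs lay in 1 barcode.

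The genes highest after the single dose were named by rank and form no list of their own. The 12 genes whose ratios lay furthest above 1 at the near bound of the interval were Hamp, Csf3, Lcn2, Mt2A, Gpx3, Ifitm1, Arhgap8, Inhbb, Col8a1, Slc38a4, Hif1a and Slco2a1. Lipocalin 2 (Lcn2), which binds bacterial iron carriers, stood at 2726 CPM in 35Gy_7d, 197 in 5x7Gy_7d, 147 in 5x7Gy_14d and 81.4 in 0Gy_7d, a ratio of 5.07 (4.84 to 5.30), with a UMI in 78 of 110 barcodes. Metallothionein Mt2A stood at 1485 CPM in 35Gy_7d, 140.4 in 5x7Gy_7d, 251 in 5x7Gy_14d and 51.1 in 0Gy_7d, with 4.86 (4.57 to 5.16), and glutathione peroxidase Gpx3 at 894 CPM in 35Gy_7d, 225 in 5x7Gy_7d, 48.9 in 5x7Gy_14d and 36.9 in 0Gy_7d, with 4.60 (4.25 to 4.96). Hif1a, the oxygen-sensitive transcription factor, stood at 879.9 CPM in 35Gy_7d, 140.4 in 5x7Gy_7d, 106 in 5x7Gy_14d and 78.1 in 0Gy_7d, with 3.49 (3.23 to 3.76).

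Several of the 12 rested on few barcodes. Hamp, the iron hormone hepcidin, had 351 UMIs in 17 barcodes of 35Gy_7d, at 689 CPM in 35Gy_7d against 0.947 in 0Gy_7d, where 2 UMIs give a ratio of 9.51 (7.64 to 12.56). Csf3, the neutrophil growth factor G-CSF, had 59.4% of its UMIs in 1 barcode, and Col8a1 had 80%. Slc38a4, an amino acid transporter, was more even, with a UMI in 61 barcodes, at 334 CPM in 35Gy_7d, 112 in 5x7Gy_7d, 20.9 in 5x7Gy_14d and 21.3 in 0Gy_7d and a ratio of 3.97 (3.49 to 4.48). Blood endothelial barcodes of 35Gy_7d also held higher Lcn2, Mt2A, Gpx3 and Hif1a, with log2 ratios of 4.18, 3.49, 1.10 and 2.50.

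Complement genes held 3 that were higher in the single-dose library. Of 7 measured complement genes 3 were at least 2-fold higher and 0 lower by that much, with a median of 0.96. Shares over all measured genes were 4.52% higher and 13.9% lower. Serping1, the C1 inhibitor, stood at 658 CPM in 35Gy_7d, 421 in 5x7Gy_7d, 106 in 5x7Gy_14d and 111 in 0Gy_7d, a ratio of 2.57 (2.33 to 2.82), with a UMI in 85 of 110 barcodes. C1r stood at 92.3 CPM in 35Gy_7d against 28.4 in 0Gy_7d and C1s at 43.2 CPM in 35Gy_7d against 10.4 in 0Gy_7d, the proteases that Serping1 restrains, with ratios of 1.70 (1.12 to 2.28) and 2.05 (1.13 to 2.97). Timp1, an inhibitor of matrix metalloproteinases, stood at 1249 CPM in 35Gy_7d, 337 in 5x7Gy_7d, 533 in 5x7Gy_14d and 277 in 0Gy_7d, with 2.17 (2.01 to 2.34) in 35Gy_7d and 0.95 (0.76 to 1.13) in 5x7Gy_14d. Mitochondrial superoxide dismutase (Sod2) stood at 2927 CPM in 35Gy_7d, 618 in 5x7Gy_7d, 686 in 5x7Gy_14d and 527 in 0Gy_7d, with 2.47 (2.36 to 2.59).

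Igfbp5, an insulin-like growth factor carrier, stood at 2204 CPM in 35Gy_7d, 1067 in 5x7Gy_7d, 1188 in 5x7Gy_14d and 692 in 0Gy_7d, a ratio of 1.67 (1.56 to 1.78) in lymphatic barcodes of 35Gy_7d. Its ratio in blood endothelial barcodes was -2.30, in the other direction. Plat, tissue plasminogen activator, stood at 285 CPM in 35Gy_7d against 74.8 in 0Gy_7d, with 1.93 (1.59 to 2.26) against -0.77 in blood endothelial barcodes. The BMP target Id1 stood at 357 CPM in 35Gy_7d, 730.2 in 5x7Gy_7d, 161 in 5x7Gy_14d and 79.05 in 0Gy_7d, with 2.18 (1.87 to 2.49), and CD200 (Cd200), a ligand that restrains myeloid cells, at 314 CPM in 35Gy_7d, 28.1 in 5x7Gy_7d, 138 in 5x7Gy_14d and 76.2 in 0Gy_7d, with 2.04 (1.72 to 2.37). These differences between the cell types were not tested.

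**Figure D4:**
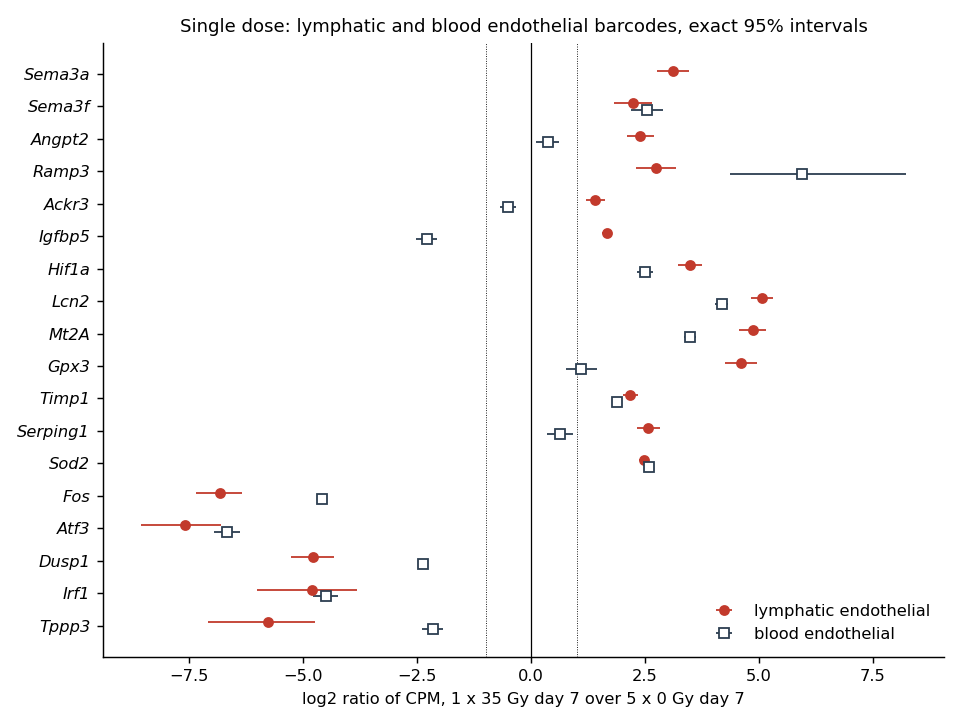
Log2 ratio of 35Gy_7d over 0Gy_7d in lymphatic barcodes and in blood endothelial barcodes of the same libraries for single genes named in the text, with exact 95% intervals for counting error and dotted lines at 2-fold. Lcn2 and Mt2A lie high and Fos, Atf3 and Irf1 low in both cell types, whereas Igfbp5 lies at 1.67 in lymphatic barcodes and at -2.30 in blood endothelial ones.

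The 12 genes furthest below 1 after the single dose were Atf3, Hspa1b, Tppp3, Dusp1, Zfp36, Gadd45b, Hspb1, Myog, Pcp4l1, Rgs16, Ppp1r15a and Nr4a1. Tppp3, a tubulin-binding protein, is no early response gene and stood at 13.7 CPM in 35Gy_7d, 84.3 in 5x7Gy_7d, 679.98 in 5x7Gy_14d and 756 in 0Gy_7d, a ratio of -5.78 (-7.10 to -4.74) in 35Gy_7d beside -2.15 in blood endothelial barcodes. Pcp4l1 stood at 5.89 CPM in 35Gy_7d, 84.3 in 5x7Gy_7d, 82.4 in 5x7Gy_14d and 123 in 0Gy_7d, with -4.38 (-6.67 to -2.82). Myog, a muscle factor, had all its 113 UMIs of 0Gy_7d in 5 barcodes. Genes of mesenchymal transition were lower too: of 11 measured 0 were at least 2-fold higher and 7 lower by that much, with a median of -1.34, beside -0.51 in blood endothelial barcodes. Shares over all measured genes were 4.52% higher and 13.9% lower. Among them Col1a1 stood at 5.89 CPM in 35Gy_7d against 117 in 0Gy_7d and Vim at 3068 CPM in 35Gy_7d against 7775 in 0Gy_7d, with ratios of -4.32 (-6.60 to -2.75) and -1.34 (-1.42 to -1.27).

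Marker genes of other cells differed between the lymphatic barcodes of the libraries. The summed level of the 13 epithelial genes matched in the files was 1532 CPM in 35Gy_7d, 4016 in 5x7Gy_7d, 168 in 5x7Gy_14d and 4580.1 in 0Gy_7d. That of 10 fibroblast genes, Col1a1 included, was 247, 225, 1400.5 and 1804 CPM. The fibroblast sum in the other kept barcodes also differed, at 2089, 759, 39942 and 24386.5 CPM. In lymphatic barcodes sums of 15 macrophage genes were 344, 309, 439.8 and 60.1 CPM, and of 8 neutrophil genes 165, 0, 8.38 and 3.31 CPM, with Csf3r and Cxcr2 at 0 in 35Gy_7d and 0Gy_7d. The 3 haemoglobin and haem genes matched summed to 2274 CPM at day 14 but to 11.02 CPM in the restricted set. In the library where each was higher, Fos, Egr1, Ier2, Klf4, Irf1, Dnajb1, Col1a1, C1r, C1s and Timp1 stood lower in lymphatic barcodes than in the other barcodes of that library. The part of RNA from other cells in the differences above was not tested.

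At day 14 after fractionated dosing, targets of the damage-activated factor p53 stood high in lymphatic barcodes. Of 23 measured p53 targets 10 were at least 2-fold higher and 1 lower by that much, with a median log2 ratio of 0.50. In the restricted set 8 were at least 2-fold higher and 1 lower by that much of 21, with a median of 0.50. Shares over all measured genes were 6.79% higher and 5.46% lower, and 5.59% and 6.84% in the restricted set. Phlda3, an inhibitor of AKT, stood at 84.5 CPM in 35Gy_7d, 84.3 in 5x7Gy_7d, 424 in 5x7Gy_14d and 62.5 in 0Gy_7d, with ratios of 2.76 (2.46 to 3.07) and 2.79 (2.46 to 3.12) in the restricted set. The cell cycle inhibitor Cdkn1a (p21) stood at 192 CPM in 35Gy_7d, 169 in 5x7Gy_7d, 635 in 5x7Gy_14d and 152 in 0Gy_7d, with 2.06 (1.85 to 2.27) and 1.66 (1.39 to 1.92). The levels of both genes were higher at day 14 than in the other 3 libraries. In the other barcodes of 5x7Gy_14d and 0Gy_7d Phlda3 stood at 496 and 179 CPM and Cdkn1a at 867 and 226 CPM, above the lymphatic levels in both libraries.

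Further targets gave ratios in the same direction. The nuclease Aen stood at 35.4 CPM in 35Gy_7d, 82.4 in 5x7Gy_14d and 8.99 in 0Gy_7d, with 3.20 (2.43 to 4.02) at day 14 and 3.15 (2.28 to 4.08) in the restricted set. Cyclin G1 (Ccng1) stood at 72.7 CPM in 35Gy_7d, 116 in 5x7Gy_14d and 27.5 in 0Gy_7d, with 2.08 (1.58 to 2.59) and 2.30 (1.76 to 2.85). Gdf15, a stress cytokine, stood at 9.82 CPM in 35Gy_7d, 274 in 5x7Gy_14d and 70.1 in 0Gy_7d, with 1.97 (1.65 to 2.28) and 2.50 (2.15 to 2.84), and 13.3% of its day 14 UMIs lay in 1 barcode.

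The share of thinned lymphatic barcodes with a Phlda3 UMI was 4.85% in 35Gy_7d, 0% in 5x7Gy_7d, 31.5% in 5x7Gy_14d and 3.32% in 0Gy_7d, and before thinning 19.1, 13.3, 73.6 and 16.1%. In Krt5-high barcodes, which can express the gene themselves, it was 22.3%, 15.3%, 24.2% and 14.6%. In 35Gy_7d the p53 list gave no common direction: of 21 measured genes 4 were at least 2-fold higher and 8 lower by that much, with a median of -0.08. Those counts are 19.0% and 38.1%, beside 4.52% higher and 13.9% lower of all measured genes. Aen was higher there at 1.97 (0.96 to 2.98), and Gdf15 was lower at -2.83 (-4.48 to -1.58) on 5 UMIs. Medians of the list in blood endothelial barcodes were 0.16 in 35Gy_7d and 0.47 in 5x7Gy_14d.

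The exception on the lower side was Perp, a p53 target that is also an epithelial desmosome gene. It stood at 108 CPM in 35Gy_7d, 365 in 5x7Gy_7d, 9.77 in 5x7Gy_14d and 355 in 0Gy_7d, a ratio of -5.18 (-6.50 to -4.13) at day 14, and at 1376, 1971, 115 and 1226 CPM in the other barcodes of those libraries, above its level in lymphatic ones. Its value moves with the epithelial sums given above, and the part of free RNA in it was not tested.

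Mitosis genes as a list stood higher at day 14 as well, though how far a few barcodes carry the list was not tested. Of 28 measured G2 and M phase genes 8 were at least 2-fold higher and 0 lower by that much, with a median of 0.71, and in the restricted set 12 were at least 2-fold higher and 0 lower by that much of 26, with a median of 0.85. Shares over all measured genes were 6.79% higher and 5.46% lower, and 5.59% and 6.84% in the restricted set. In blood endothelial barcodes the same list had a median of -0.62. Mki67, a marker of cycling cells, stood at 47.1 CPM in 35Gy_7d, 28.1 in 5x7Gy_7d, 62.8 in 5x7Gy_14d and 28.4 in 0Gy_7d, ratios of 1.15 (0.55 to 1.73) and 1.37 (0.73 to 1.99) in the restricted set. Only 6 of 91 barcodes in 5x7Gy_14d and 14 of 415 in 0Gy_7d held a UMI of it, and 1 barcode held 53.3% of the day 14 UMIs, without which the ratio was 0.08. Top2a, the topoisomerase of dividing cells, lay in 4 barcodes of 5x7Gy_14d and 13 of 0Gy_7d.

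Interferon-stimulated and antigen presentation genes were also higher at day 14. Of 21 measured interferon-stimulated genes 8 were at least 2-fold higher and 1 lower by that much, with a median of 0.89. In the restricted set 6 were at least 2-fold higher and 2 lower by that much of 18, with a median of 0.63. Shares over all measured genes were 6.79% higher and 5.46% lower, and 5.59% and 6.84% in the restricted set. With barcodes thinned to 1000 UMIs only 4 genes of the list reached 30 UMIs, and their median was 0.08, which does not cover the rest of the list. The ubiquitin-like protein Isg15 stood at 259 CPM in 35Gy_7d, 140.4 in 5x7Gy_7d, 208 in 5x7Gy_14d and 49.7 in 0Gy_7d, ratios of 2.38 (2.002 to 2.77) in 35Gy_7d and 2.07 (1.70 to 2.44) in 5x7Gy_14d, though 1 barcode held 69.7% of its UMIs in 35Gy_7d and the ratio there was 0.78 without it. The guanylate-binding proteins Gbp2 and Gbp4 stood at 109 CPM in 5x7Gy_14d against 32.2 in 0Gy_7d and at 40.5 CPM in 5x7Gy_14d against 4.73 in 0Gy_7d, with ratios of 1.76 (1.27 to 2.25) and 3.10 (2.02 to 4.30), or 1.60 (0.98 to 2.21) and 3.31 (2.18 to 4.55) in the restricted set.

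Bst2 (tetherin), an antiviral membrane protein with high lymphatic expression, went the other way. It stood at 760.1 CPM in 35Gy_7d, 449 in 5x7Gy_7d, 295 in 5x7Gy_14d and 888 in 0Gy_7d, a ratio of -1.59 (-1.80 to -1.38) at day 14 and -1.42 (-1.67 to -1.19) in the restricted set. In blood endothelial barcodes the ratio was -1.12. Median ratios of the list in blood endothelial barcodes were -0.48 in 35Gy_7d and 0.83 in 5x7Gy_14d, beside 0.19 and 0.89 in lymphatic ones.

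For MHC class I presentation 5 were at least 2-fold higher and 0 lower by that much of 15 measured genes at day 14, with a median of 0.59. In the restricted set 4 were at least 2-fold higher and 0 lower by that much, with a median of 0.40. Shares over all measured genes were 6.79% higher and 5.46% lower, and 5.59% and 6.84% in the restricted set. The peptide transporter Tap1 stood at 33.4 CPM in 35Gy_7d, 68.4 in 5x7Gy_14d and 24.6 in 0Gy_7d, with 1.47 (0.88 to 2.07) or 1.37 (0.63 to 2.09) in the restricted set, and the immunoproteasome subunit Psmb10 at 137 CPM in 35Gy_7d, 152 in 5x7Gy_14d and 62.5 in 0Gy_7d, with 1.28 (0.90 to 1.66) or 1.18 (0.72 to 1.63). The class I genes RT1-A2 and RT1-CE10 stood at 314 CPM in 5x7Gy_14d against 107 in 0Gy_7d and at 539 CPM in 5x7Gy_14d against 163 in 0Gy_7d, with 1.56 (1.29 to 1.83) and 1.73 (1.51 to 1.94), but as members of a multigene family they may share reads. B2m, the light chain, stood at 3665 CPM in 35Gy_7d, 4500.1 in 5x7Gy_14d and 2996 in 0Gy_7d.

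**Figure D5:**
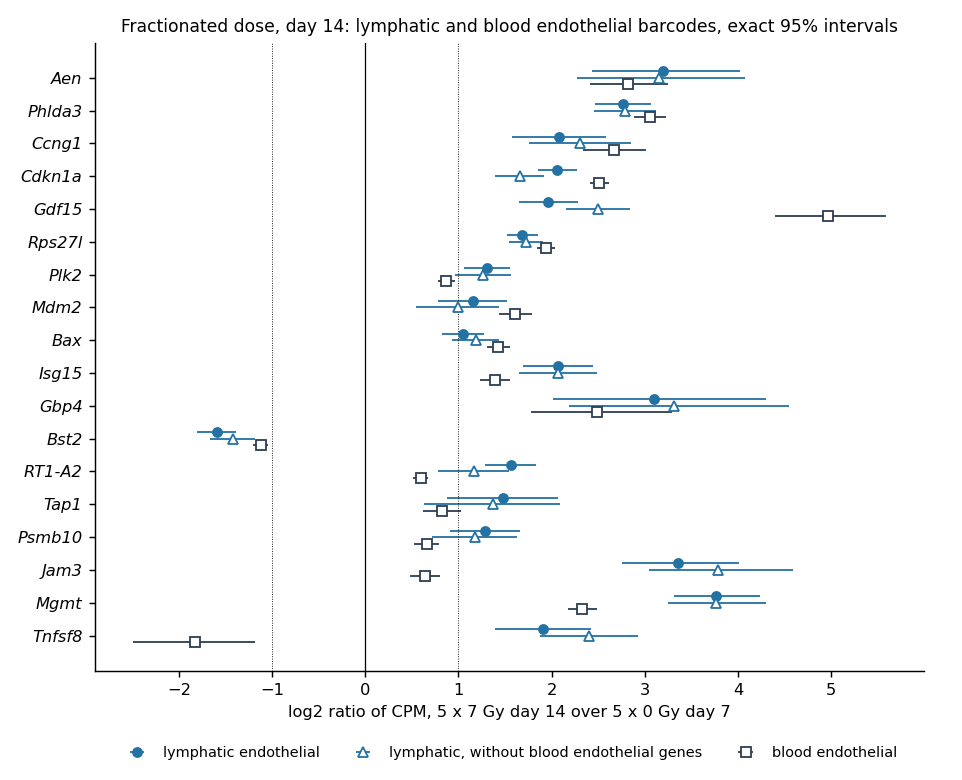
Log2 ratio of 5x7Gy_14d over 0Gy_7d for p53 target, interferon, antigen presentation and other genes in lymphatic barcodes, in lymphatic barcodes without blood vessel genes, and in blood endothelial barcodes, with exact 95% intervals for counting error and dotted lines at 2-fold. Phlda3 lies at 2.76 in lymphatic barcodes and 2.79 in the restricted set, Bst2 lies at -1.59, and Tnfsf8 lies on opposite sides of a ratio of 1 in the 2 cell types.

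Junction genes held the adhesion molecules Esam and Jam3, both higher at day 14. Of 17 measured junction genes 4 were at least 2-fold higher and 1 lower by that much, with a median of 0.56 that was 0.54 in the restricted set. Shares over all measured genes were 6.79% higher and 5.46% lower. Jam3, a junctional adhesion molecule through which leukocytes pass, stood at 37.3 CPM in 35Gy_7d, 28.1 in 5x7Gy_7d, 141 in 5x7Gy_14d and 13.7 in 0Gy_7d, with ratios of 3.36 (2.75 to 4.01) and 3.79 (3.04 to 4.59), and 0.64 in blood endothelial barcodes. Beta-catenin (Ctnnb1) stood at 55.9 CPM in 5x7Gy_14d against 23.7 in 0Gy_7d, with 1.24 (0.60 to 1.87) or 1.25 (0.50 to 1.98) in the restricted set. Cdh5 had a ratio of 0.74 (0.53 to 0.96) and the tight junction gene Cldn5, chosen after its values were seen, stood at 1453 CPM in 35Gy_7d, 1366 in 5x7Gy_14d and 1644 in 0Gy_7d. After the single dose 2 junction genes were at least 2-fold higher and 3 lower by that much of 17, with a median of -0.04. All measured genes gave 4.52% higher and 13.9% lower there.

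Basement membrane and matrix genes included 11 at least 2-fold higher and 0 lower of 31 measured at day 14, with a median of 0.60. In the restricted set 7 were at least 2-fold higher and 2 lower by that much of 30, with a median of 0.50. Shares over all measured genes were 6.79% higher and 5.46% lower, and 5.59% and 6.84% in the restricted set. Col4a2, a collagen chain of basement membranes, stood at 31.4 CPM in 35Gy_7d, 129.9 in 5x7Gy_14d and 35.5 in 0Gy_7d, with ratios of 1.87 (1.42 to 2.33) and 1.50 (0.87 to 2.11). The gelatinase Mmp2 stood at 33.4 CPM in 35Gy_7d, 184 in 5x7Gy_14d and 26.98 in 0Gy_7d, with 2.77 (2.31 to 3.25) and 2.14 (1.56 to 2.72), and at 1115 CPM in the other barcodes of the day 14 library, above its lymphatic level. Ccng1, Adamts1, Bmp4, Fabp4, Nrp1 and Timp1 were likewise below the level of the other day 14 barcodes. The protease Adamts1 was higher in both irradiated libraries, at 108 CPM in 35Gy_7d, 96.3 in 5x7Gy_14d and 27.9 in 0Gy_7d, with 1.95 (1.39 to 2.51) in 35Gy_7d and 1.79 (1.26 to 2.31) in 5x7Gy_14d, or 1.64 (0.85 to 2.41) in the restricted set.

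The 12 genes furthest above 1 at day 14 were Mgmt, Gpihbp1, Enho, Plac8, Jam3, Apln, Hist1h1b, Ephx1, Rasa4, Tmem255b, Fam111a and Aen. Mgmt, which repairs alkylated guanine, stood at 56.96 CPM in 35Gy_7d, 112 in 5x7Gy_7d, 314 in 5x7Gy_14d and 23.2 in 0Gy_7d, with ratios of 3.76 (3.31 to 4.24) and 3.76 (3.25 to 4.30) in the restricted set, 1.30 (0.58 to 1.99) in 35Gy_7d (-0.88 after thinning) and 2.33 in blood endothelial barcodes of 5x7Gy_14d. It had a UMI in 53 of 91 barcodes of 5x7Gy_14d and 45 of 415 of 0Gy_7d. Ephx1, a microsomal epoxide hydrolase, stood at 7.86 CPM in 35Gy_7d, 149 in 5x7Gy_14d and 17.5 in 0Gy_7d, with 3.09 (2.54 to 3.67) and 2.27 (1.56 to 2.98). Gpihbp1 and Apln, genes of blood capillaries and their tips, came with the mixed barcodes: Apln had 3.15 (2.71 to 3.61) over all 91 and -1.54 (-3.47 to -0.09) in the restricted set, where Gpihbp1 had too few UMIs to be measured.

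The 12 furthest below 1 were Myog, Actc1, Klhl41, Ccl21, Prdm8, Pnma8b, Cxcl2, Jsrp1, Aspa, Ttyh1, Bst2 and Smpdl3a. Cxcl2, a neutrophil chemokine, stood at 149 CPM in 35Gy_7d, 0 in 5x7Gy_7d, 184 in 5x7Gy_14d and 626 in 0Gy_7d, with -1.76 (-2.03 to -1.50) and -1.35 (-1.63 to -1.07) in the restricted set, and a ratio of 1.34 in blood endothelial barcodes. Smpdl3a, a phosphodiesterase, stood at 165 CPM in 35Gy_7d, 253 in 5x7Gy_7d, 64.2 in 5x7Gy_14d and 227 in 0Gy_7d, with -1.82 (-2.29 to -1.38) or -1.34 (-1.82 to -0.88) in the restricted set. The muscle genes Myog and Actc1 had no UMI at day 14, and in 0Gy_7d their UMIs lay in 5 and 16 of 415 barcodes.

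Genes that guide leukocytes into and along lymphatics gave no common direction. In 35Gy_7d 6 were at least 2-fold higher and 6 lower by that much of 23 measured, with a median of 0.01. That is 26.1% each way, beside 4.52% higher and 13.9% lower of all measured genes. In 5x7Gy_14d 8 were at least 2-fold higher and 4 lower by that much of 24, but in the restricted set 1 was at least 2-fold higher and 3 lower by that much of 19. All measured genes gave 6.79% higher and 5.46% lower at day 14, and 5.59% and 6.84% in the restricted set. Selp, Vcam1, Jam2 and Cxcl12, venular and stromal genes that were at least 2-fold higher over all 91 barcodes, were not in the restricted set, where Cxcl12 had 0.59 (-0.37 to 1.47) and the others too few UMIs. Il7 and Spns2 were chosen after their values were seen. Il7, a T cell survival factor that lymphatic cells make, stood at 11.8 CPM in 35Gy_7d, 22.3 in 5x7Gy_14d and 53.96 in 0Gy_7d, with -2.19 (-3.67 to -1.03) in 35Gy_7d and -1.27 (-2.13 to -0.51) in 5x7Gy_14d, or -0.77 (-1.65 to 0.02) in the restricted set. Nt5e (CD73), which makes adenosine, stood at 25.5 CPM in 35Gy_7d, 37.7 in 5x7Gy_14d and 107 in 0Gy_7d, with -2.07 (-3.005 to -1.27) and -1.51 (-2.14 to -0.93), or -1.12 (-1.79 to -0.51) at day 14 in the restricted set. The sphingosine 1-phosphate exporter Spns2 stood at 169 CPM in 35Gy_7d, 139.6 in 5x7Gy_14d and 207 in 0Gy_7d, with differences under 2-fold.

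The day 14 fractionated and day 7 single-dose libraries differ in schedule and in day together, so only levels and ratios are given between them. Scaling by the median of gene ratios in place of totals moves every log2 ratio of this pair by 0.15. Ccl21 had a ratio of 5x7Gy_14d over 35Gy_7d of -3.30 (-3.34 to -3.26), or -2.86 (-2.89 to -2.82) without mixed barcodes, Lcn2 of -4.22 (-4.52 to -3.93), Gpx3 of -4.19 (-4.73 to -3.70) and Hif1a of -3.05 (-3.42 to -2.70). In the other direction Gdf15 had 4.80 (3.55 to 6.44) and Cldn11 3.37 (2.28 to 4.72).

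The 15 barcodes of 5x7Gy_7d held 35606 UMIs and carried lymphatic genes, with Lyve1 at 2303 CPM and Ccl21 at 28394 CPM. The adrenomedullin co-receptor gene Ramp2 stood at 2106 CPM there. Of the genes that chose these barcodes, Prox1 had a UMI in 13 of the 15 and Flt4 in 9, given as a description only. Fos, Atf3 and Fosb had 0 UMIs there, beside 7.89 CPM of Fos in the other barcodes of that library. With 0 UMIs the exact interval for Fos ends at 104 CPM, below 7602 CPM in 0Gy_7d. No ratios over 0Gy_7d were taken for this library.

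Lymphatic barcodes varied among themselves within each library. From the first to the third quartile of barcodes, Ccl21 UMIs per 10000 ran over 477 to 1503 in 35Gy_7d, 0 to 157 in 5x7Gy_14d and 103 to 546 in 0Gy_7d. For Lyve1 the same range was 30.7 to 68.7 in 35Gy_7d, 0.752 to 46.6 in 5x7Gy_14d and 19.5 to 56.9 in 0Gy_7d. Barcodes with no Lyve1 UMI numbered 5 of 110, 21 of 91 and 27 of 415 in those libraries. Cldn11 and Foxc2, the valve genes, had a UMI in 52 and 42 of the 415 barcodes of 0Gy_7d, so most lymphatic barcodes showed neither.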

How the data were processed

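Each library held 10x Genomics 3′ single-cell RNA counts. The authors deposited count matrices of UMIs per gene and barcode, made with Cell Ranger 5.0.0 per the submitters' processing notes, which list the builds mRatBN7.2 and rn7. The sources used here do not name the annotation release. All 4 matrices held 32623 features under 30017 names. Of 835 listed symbols 805 matched a feature and 30 were not analysed here. Pecam1 was among those 30, so blood endothelial barcodes were found with Cdh5, Flt1 and Vwf.

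The cells and gene lists were chosen with earlier results of these data known. UMIs of lymphatic barcodes were summed per library and divided by their total (CPM). A ratio was taken for genes with at least 30 UMIs over both libraries, with an exact conditional binomial 95% interval. At least 2-fold was the limit for counting a gene. Against a library at 0 a fold is a bound from a floor of 3 counts. Replicates were 1 pooled library a group, so no p-value is given.

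Named genes were those of the lymphatic lists, the 12 per direction whose interval bound lay furthest beyond a ratio of 1 and which stood at least as high as in the other barcodes, and up to 6 of each other list. One gene that met this rule is not reported here, though counts and medians of its list include it. Doublets were called with Scrublet but not removed, and marked 0, 0, 1 and 15 lymphatic barcodes in 35Gy_7d, 5x7Gy_7d, 5x7Gy_14d and 0Gy_7d. Pairs of libraries shared 26 to 38 barcode sequences, none of them lymphatic in both. The ratio code was tested on simulated data. Tools were python 3.11.15, numpy 2.4.6, scipy 1.17.1, pandas 2.3.3, scanpy 1.11.5 and matplotlib 3.10.9.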

Additional observations from a re-analysis of the deposited data

Results flagged for a closer look

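For 5 reported genes the ratio over 0Gy_7d was at least 2-fold in opposite directions in lymphatic and in blood endothelial barcodes of the same libraries. Both ratios lay beyond counting error, also without the mixed barcodes. A minimum level relative to the other barcodes of the library was asked for in both cell types. Igfbp5, Plat and Cxcl2, named above with ratios in opposite directions, are not among the 5. The difference between the cell types was not tested, and each value comes from 1 pooled library a group.

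In 35Gy_7d the carbonic anhydrase gene Ca4 had a log2 ratio of 2.32 in lymphatic barcodes, at 735 CPM in 35Gy_7d against 147 in 0Gy_7d, and of -2.46 in blood endothelial ones. The stress cytokine Gdf15 had -2.83 in lymphatic barcodes and 1.61 in blood endothelial ones. Neurotensin (Nts) had no UMI in lymphatic barcodes of 35Gy_7d, which with the floor of 3 counts gives -1.92 or lower, and in blood endothelial barcodes it stood at 9.04 CPM in 35Gy_7d against 0 in 0Gy_7d. Its 0Gy_7d lymphatic UMIs lay in 2 of 415 barcodes.

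In 5x7Gy_14d the proliferation gene Mki67 had a log2 ratio of 1.15 in lymphatic barcodes, resting on 6 of 91 barcodes and standing at 0.08 without 1 of them, and of -1.25 in blood endothelial ones. Tnfsf8, the CD30 ligand, had 1.91 in lymphatic barcodes, at 105 CPM in 5x7Gy_14d against 27.9 in 0Gy_7d, and -1.83 in blood endothelial ones. Without the mixed barcodes the lymphatic ratios of Mki67 and Tnfsf8 were 1.37 and 2.40.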

How the results depend on the processing

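No paired analysis was possible because each group is 1 pooled library. The lower share of lymphatic barcodes kept its direction under every alternative run, with log2 ratios of -1.64 in 35Gy_7d and -1.96 in 5x7Gy_14d that were -1.01 and -2.60 as shares of endothelial barcodes. Counts of genes at least 2-fold apart moved with the minimum number of UMIs and with depth. In 35Gy_7d 312 genes were higher, against 486 with barcodes weighted equally, 130 thinned to 1000 UMIs, 107 with at least 100 UMIs and 3604 with no minimum. The 960 lower genes were 338 thinned, 405 with at least 100 UMIs and 1550 with no minimum. In 5x7Gy_14d the 495 higher genes were 155 thinned, 176 with at least 100 UMIs and 3362 with no minimum, and the 398 lower ones were 178, 147 and 887. Fewer genes or reads enter the thinned and stricter counts.

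Of 1000 gene ratios under alternatives 844 moved by less than counting error, but the alternatives differed. Thinning to 1000 UMIs left 69 of 125 gene ratios within counting error, with 53 moved beyond it and 3 reversed in sign. Without the mixed barcodes 92 of 125 stayed within it. Thinning gave 35Gy_7d values of 0.19 for Foxc1, 0.51 for Insig1 and -0.88 for Mgmt, opposite in sign to the main ratios. These rest on few UMIs. Insig1 was at the floor of 3 counts in 35Gy_7d and Foxc1 at or near it, so neither value is a measured reversal. Leaving out the mixed barcodes, a choice made after the data were seen, turned those of 5x7Gy_14d to -1.54 for Apln, -0.11 for Bmp4 and -0.21 for Nrp1, and asking for at least 3 marker UMIs turned Cxcl12 to -0.25. Bmp4 had too few UMIs in the restricted set to be measured, so its value is not a measured reversal. Leaving out the barcode with most UMIs of a gene was also chosen after the data were seen. Ratios on few UMIs are limited by depth, above all among the 110 and 91 irradiated barcodes.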

Other observations

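Several gene groups not described above are given as counts and values, with no test. In 35Gy_7d 4.52% of all measured genes were at least 2-fold higher and 13.9% lower by that much. Of 21 lipid handling genes 3 were at least 2-fold higher and 5 lower by that much there, with a median log2 ratio of -0.65. Without the barcodes holding blood vessel genes 1 was at least 2-fold higher and 2 lower by that much of 19, with a median of -0.35. Insig1, a brake on cholesterol synthesis, stood at 3.93 CPM in 35Gy_7d against 43.5 in 0Gy_7d, a ratio of -3.47 (-6.54 to -1.58). After thinning to 1000 UMIs it was at the floor of 3 counts in 35Gy_7d, so its value of 0.51 is a bound. The cholesterol exporter Abca1 stood at 269 CPM in 35Gy_7d against 86.1 in 0Gy_7d, with 1.64 (1.31 to 1.97). Genes of TGF-beta and BMP signalling also differed there: 3 were at least 2-fold higher and 6 lower by that much of 17, with a median of -0.58. Bmp2 stood at 7.86 CPM in 35Gy_7d against 77.2 in 0Gy_7d, with -3.30 (-5.19 to -1.91), and both Insig1 and Bmp2 stood lower there than in the other barcodes of 0Gy_7d. In Notch signalling 0 were at least 2-fold higher and 2 lower by that much of 8, and Hes1, a target of the pathway, stood at 80.5 CPM in 35Gy_7d against 349 in 0Gy_7d, with -2.12 (-2.61 to -1.66). Redox genes gave no common direction, since 3 were at least 2-fold higher and 6 lower by that much of 22, with the metallothionein Mt1 at 1569 CPM in 35Gy_7d against 164 in 0Gy_7d and a ratio of 3.26 (3.07 to 3.44). Glycolysis and hypoxia genes held Hif1a, and 2 were at least 2-fold higher and 6 lower by that much of 23, with a median of 0.07.

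At day 14 6.79% of all measured genes were at least 2-fold higher, and 5.59% in the restricted set. Of 19 death receptor and apoptosis genes 6 were at least 2-fold higher and 0 lower by that much, with a median log2 ratio of 0.75, and in the restricted set 3 were at least 2-fold higher and 0 lower by that much of 14, with a median of 0.46. Bax, a pore-forming BCL2 family member, stood at 392 CPM in 5x7Gy_14d against 189 in 0Gy_7d, with 1.05 (0.83 to 1.28), or 1.19 (0.93 to 1.44) without the mixed barcodes. Among senescence genes, a list that shares Cdkn1a and Gdf15 with the p53 targets, 5 were at least 2-fold higher and 0 lower by that much of 13, with a median of 0.78, and in the restricted set 5 were at least 2-fold higher and 0 lower by that much of 11, with a median of 0.68. S phase genes held 5 at least 2-fold higher and 0 lower of 23, with a median of 0.44, and in the restricted set 2 were at least 2-fold higher and 0 lower by that much of 21, with a median of 0.36. Inflammatory mediators changed side with the mixed barcodes, with a median of 0.63 over all 91 and -0.59 over the other 69.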
